A study of Saccharomyces cerevisiae with 14 samples.

Results

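Thiamine, vitamin B1, is made by budding yeast (Saccharomyces cerevisiae) through genes that are here followed across 6 groups of cultures. They are the 9 genes THI2 (YBR240C), THI3 (YDL080C), THI4 (YGR144W), THI6 (YPL214C), THI7 (YLR237W), THI13 (YDL244W), THI20 (YOL055C), THI21 (YPL258C) and THI80 (YOR143C), out of 5449 genes with a probe set on the arrays. Each was read by the probe set annotated to it, and this choice of probe set uses no measured value. All 9 have 1 probe set each, all 9 were above background on all 14 arrays, and all 9 passed the filter on low signals, as did 5415 genes in all.

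Yeast builds thiamine from a thiazole part and a pyrimidine part that are made separately and then joined. Thi4 makes the thiazole and the Thi5 family, to which Thi13 belongs, makes the pyrimidine. Thi20 and Thi21 phosphorylate the pyrimidine, Thi6 joins it to the thiazole, and Thi80 converts thiamine to thiamine diphosphate, the active cofactor. Thi7 is the thiamine transporter of the plasma membrane. Thi2 and Thi3, with Pdc2, are the regulators that turn these genes on when thiamine is scarce, and thiamine in the medium is known to repress THI4, the THI5 family and other genes of the pathway.

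The arrays belong to 3 experiments, each with an altered strain and a wild type of its own, and the labels call the replicates biological. Set1 methylates lysine 4 of histone H3 and Jhd2 is the demethylase that removes this mark. The SET1 experiment had 2 arrays of a set1 deletion strain (set1::KanMx, with his3-1, leu2-0, met15-0 and ura3-0) and 2 of wild type. The jhd2 experiment had 3 arrays of a jhd2 deletion strain (jhd2::KanMX, with his3∆1, le2∆0, lys2∆0 and ura3∆0) and 3 of wild type. The overexpression experiment had 2 arrays of a strain that overexpresses JHD2 over the deletion cassette, labelled (jhd2∆::KanMx)+(JHD2 O/E), with his3-1, leu2-0, lys2-0 and ura3-0, and 2 of wild type. The wild types are labelled his3∆1, le2∆0, lys2∆0 and ura3∆0, with functional TRP, MET15 and ADE genes, so all 6 groups are labelled with his3, leucine and ura3 markers. The labels used here do not name the promoter that drives JHD2 or say whether a strain is 1 clone. Cultures were grown at 30 °C to an optical density of 0.6 to 0.7. Neither the medium nor its thiamine content is named there.

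The targeted genes went with the strain labels. SET1 read 1.13 and 3.31 in the set1 deletion, against 395.4 to 701.2 on all other arrays. JHD2 read 0.23 to 3.41 in the jhd2 deletion and 5207 and 6237 in the overexpressing strain. Other signals showed that the 3 experiments did not use 1 strain background. All 7 a-specific mating genes were called higher, and all 5 alpha-specific genes lower, in the wild type of the SET1 experiment than in either other wild type. LEU2 read 6895 and 6823 in the overexpressing strain and 6875 and 7294 in its wild type, against 5.28 to 46.18 on the arrays of the other experiments. LEU2 RNA was thus present in both groups although their labels give a leucine marker, and where it came from was not tested. LYS2 was 8.04 higher and MET17 (MET15) was 10.28 lower in the set1 deletion than in its wild type on the log2 scale, as the met15 and lys2 markers of these strains differ. Differences between experiments, and between an altered strain and a wild type with other markers, cannot be told apart from these backgrounds.

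The array values are signals, made per probe set with the MAS5 algorithm and scaled to a common mean on every array. A signal tracks RNA abundance only within a probe set, so levels are compared between groups and not between genes. The THI13 probe set is of a kind that matches several transcripts, and no probe set was named for THI5, THI11 or THI12. These 4 genes have the same annotated length of 1023 bases, so the THI13 signal may include RNA of its family. Differences are given on the log2 scale with the standard error of a linear model (limma) fitted to all 14 arrays, and a gene was called where its Benjamini-Hochberg adjusted p over the 5415 genes was under 0.05.

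**Figure D1:**
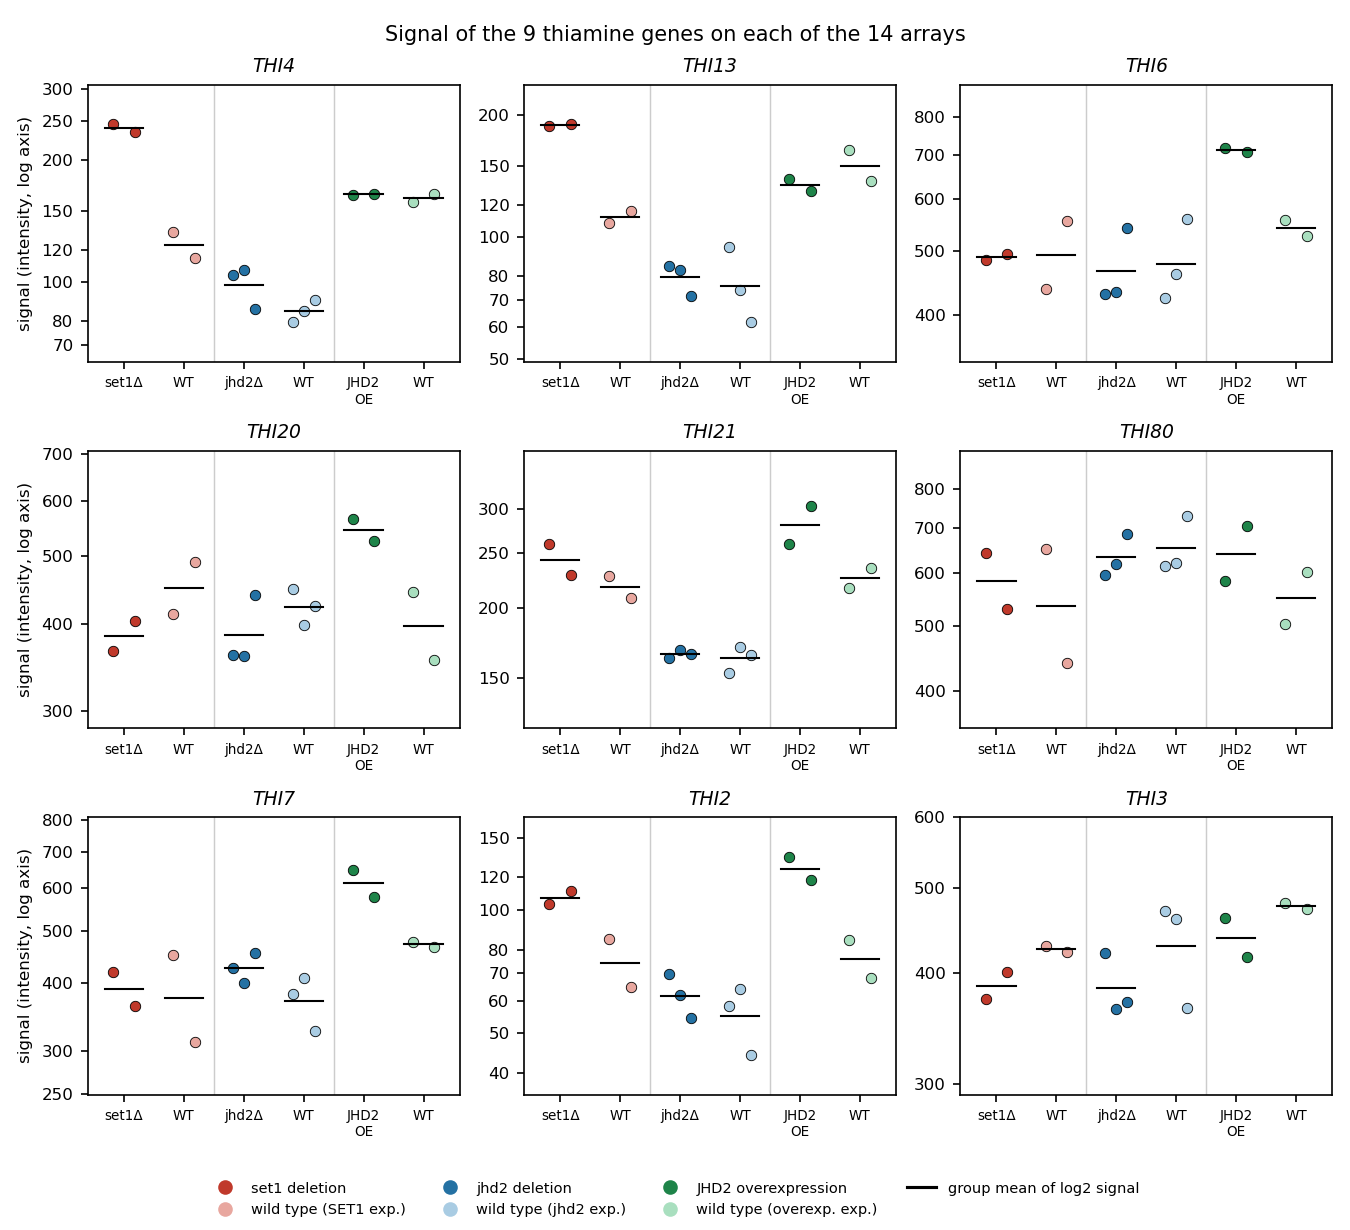
Signal of each of the 9 thiamine genes on each of the 14 arrays, 1 panel per gene, with groups along the horizontal axis, signal on a logarithmic vertical axis and lines at the group means of log2 signal. THI4 and THI13 are highest in the set1 deletion and lowest in both groups of the jhd2 experiment, and THI3 and THI80 vary least between groups.

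The set1 deletion was set against its wild type to see which genes depend on the methyltransferase. THI4 and THI13, which make the thiazole and pyrimidine parts of thiamine, had the largest differences of the 9 genes, both higher in the deletion, but no thiamine gene was called. The other thiamine genes differed by -0.23 to 0.53.

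THI4, the thiazole synthase, had signals of 245.6 and 234.4 in the set1 deletion and 132.6 and 114.6 in wild type. Both deletion arrays lay above both wild-type arrays, and above all other arrays of the series. The difference was 0.96 ± 0.18 (SE, 2 arrays each, 95% interval 0.57 to 1.36), or 1.95-fold, with an adjusted p of 0.0501 in limma, just outside the threshold. It was the 19th smallest p of the 5415 genes, and 14 genes were called. The adjusted p of THI4 ranged from 0.0108 to 0.519 over 26 other ways of processing, 8 of which called it, and the difference itself stayed between 0.81 and 1.07. Without each array of the SET1 experiment in turn it was not called.

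THI13, of the pyrimidine-forming THI5 family, read 187.7 and 190.6 in the set1 deletion and 108.1 and 115.7 in wild type. The groups did not overlap, and the difference was 0.76 ± 0.22 (adjusted p = 0.305). THI2, the DNA-binding regulator, read 103.3 and 110.9 in the deletion and 85.09 and 64.76 in wild type, a difference of 0.53 ± 0.25 (adjusted p = 0.612). THI21, a kinase of the pyrimidine branch, read 259.5 and 228.4 in the deletion and 227.9 and 208.2 in wild type, so its arrays were only just apart.

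Its paralog THI20 read 365.8 and 403.4 in the deletion and 413.4 and 490.6 in wild type, lower in the deletion by 0.23 ± 0.17 on the log2 scale. THI3, the co-regulator, read 374 and 400.9 in the deletion and 429.6 and 422.3 in wild type. THI6 (-0.01 ± 0.17), THI7 (0.06 ± 0.18) and THI80 (0.12 ± 0.20) had overlapping groups. Of the 9 genes, 4 had non-overlapping groups with higher values in the deletion, against 19.4% of all tested genes, and 2 with lower values, against 17% of them. The called share was 0 of 9, against 0.259% of all tested genes, and 2 of 9 had an unadjusted p under 0.05, against 8.33%. The median difference was 0.12 over the 9 genes and 0.02 over all genes.

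The jhd2 deletion was set against its wild type to see which genes depend on the demethylase. The group means of the thiamine genes were near those of wild type. The differences ran from -0.16 for THI3 to 0.22 for THI4, with 95% intervals that lay between -0.43 and 0.61 in all 9 genes, and the median was 0.02, against -0.04 over all genes.

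THI4 read 103.9, 106.9 and 85.75 in the jhd2 deletion and 79.49, 84.76 and 90.35 in wild type. The array ranges overlapped, as they did in all 9 genes. In THI4 the overlap lay in replicate 3 alone, at 85.75 in the deletion and 90.35 in wild type. Over 26 other settings the THI4 difference was 0.16 to 0.36, and none of them called it. THI13 read 84.82, 82.91 and 71.42 in the deletion and 94.65, 74.1 and 61.52 in wild type, a difference of 0.07 ± 0.18. THI2 (0.17 ± 0.21) and THI7, the transporter (0.20 ± 0.15), were slightly higher in the deletion, and THI20 (-0.14 ± 0.13) and THI3 (-0.16 ± 0.13) slightly lower, all with 95% intervals that include 0. None of the 9 genes was called (0.0369% of all tested genes were), none had an unadjusted p under 0.05 (1.83% did) and none had groups that did not overlap (4.78% did).

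The overexpressing strain was set against its wild type to see which genes respond to more demethylase. It gave a different order. In THI2, THI20, THI6, THI7 and THI21 both overexpressing arrays lay above both wild-type arrays. In THI4, THI13 and THI80 the groups overlapped, and in THI3 both overexpressing arrays lay below. No difference passed the test.

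THI4 read 164.1 and 164.8 in the overexpressing strain and 157.6 and 164.9 in wild type. The difference was 0.03 ± 0.18 with a 95% interval of -0.37 to 0.42. THI13 read 138.9 and 130.0 in the overexpressing strain and 163.9 and 137.5 in wild type (-0.16 ± 0.22). These are the genes with the largest differences in the set1 deletion.

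Downstream of those steps, THI20 read 565.1 and 525.3 in the overexpressing strain and 444.8 and 354.8 in wild type, a difference of 0.46 ± 0.17 (adjusted p = 0.187). THI6, which joins the thiazole and pyrimidine parts, read 718.1 and 707.2 in the overexpressing strain and 558.5 and 527.3 in wild type, a difference of 0.39 ± 0.17 (adjusted p = 0.246). THI21 read 259.4 and 303.9 in the overexpressing strain and 216.8 and 235.7 in wild type (0.31 ± 0.16). In these genes both overexpressing arrays lay above both wild-type arrays, while THI80 (0.22 ± 0.20) overlapped.

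Among the transporter and the regulators, THI2 read 134.4 and 118.1 in the overexpressing strain and 84.64 and 68.14 in wild type, 0.73 ± 0.25, or 1.66-fold (adjusted p = 0.17). THI7 read 647.8 and 577.4 in the overexpressing strain and 476.6 and 467.1 in wild type (0.37 ± 0.18). THI3 read 461.8 and 417.3 in the overexpressing strain and 480.2 and 472.7 in wild type (-0.12 ± 0.15), so this regulator lay below wild type where THI2 lay above it. Groups did not overlap in 5 of 9 genes with higher values, against 31.1% of all tested genes, and in 1 with lower values, against 31.9%. The called share was 0 of 9, against 0.517%, and 3 of 9 had an unadjusted p under 0.05, against 19.4%. The median was 0.31 over the 9 genes and 0 over all genes.

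The RNA of the overexpressing arrays also differed in 3' to 5' signal of the control probe sets, with log2 ratios of 1.44 and 1.43 against 0.88 and 0.66 in wild type. With this ratio in the fit, the difference was 0.96 in THI2 (adjusted p = 0.157), 0.35 in THI20 and 0.16 in THI6. That fit takes the effect of the ratio from differences between arrays of the same group. The overexpressing arrays hardly differ in it, and the widest differences within groups lie in the jhd2 experiment. The fit therefore cannot tell the part of this ratio in the result. THI2 was called with quantile normalization, at 1.05 (adjusted p = 0.0372), and THI2, THI6 and THI20 with array weights or a replicate block. High ratios were not particular to the overexpressing strain. Replicate 3 of the jhd2 experiment had 1.33 in the deletion and 1.5 in wild type, against 0.54 to 0.6 on its other arrays.

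**Figure D2:**
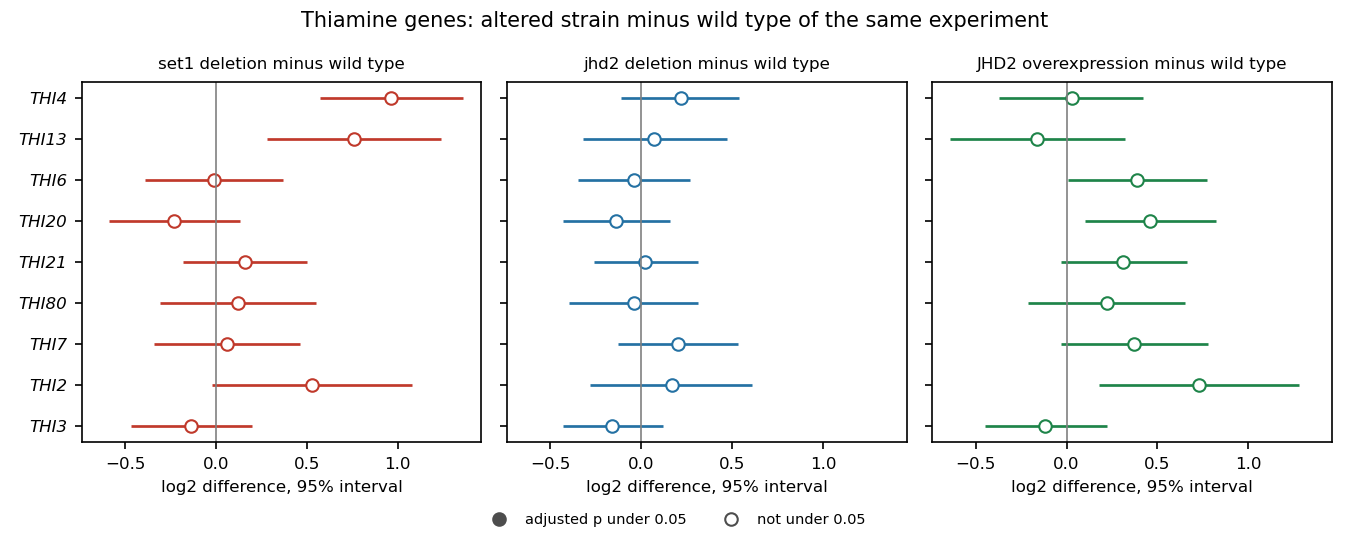
Difference in log2 signal between each altered strain and the wild type of its own experiment for the 9 thiamine genes, with 95% intervals, in 3 panels for the set1 deletion, the jhd2 deletion and JHD2 overexpression. Open circles mark genes not called, which is every circle, and THI4 at 0.96 in the set1 deletion is the largest difference.

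The changes in the altered strains were then compared with each other, as the change in one strain minus the change in another. No member was called in any of these 3 comparisons, in which 0.0739%, 0.0923% and 0.259% of all tested genes were called. An unadjusted p under 0.05 was found for 2, 1 and 3 of the 9 genes, against 4.56%, 11.7% and 12.7% of all genes. The comparisons are the set1 against the jhd2 deletion, the overexpression against the jhd2 deletion, and the set1 deletion against the overexpression. The THI4 difference was 0.75 ± 0.23 larger in the set1 deletion than in the jhd2 deletion (adjusted p = 0.753), and 0.93 ± 0.26 larger than in the overexpressing strain (adjusted p = 0.196). For THI13 the comparison with the overexpressing strain gave 0.92 ± 0.31 (adjusted p = 0.285). In this comparison the 1354 genes with the lowest signals, THI4 and THI13 among them, had a median of 0.26. The brighter groups of genes had medians of -0.04, -0.03 and 0. The part of this shift in the THI4 and THI13 values was not tested. For THI20 the set1 change lay 0.69 ± 0.23 below the overexpression change on the log2 scale (adjusted p = 0.284). The overexpression change of THI20 lay 0.59 ± 0.21 above its jhd2 deletion change (adjusted p = 0.377).

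The calls among the thiamine genes came from a comparison of wild types. In the wild type of the overexpression experiment THI13 and THI4 were 1.99-fold and 1.90-fold higher than in that of the jhd2 experiment, and THI21 was 1.39-fold higher. These 3 genes were called and the other 6 were not. This comparison called 16.3% of all tested genes, 10.7% as higher and 5.5% as lower. The 880 calls over all genes were 257 without replicate 1 and 382 without replicate 2 of the overexpression wild type, and 581 without replicate 2 of the jhd2 wild type.

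THI4 read 157.6 and 164.9 in the wild type of the overexpression experiment and 79.49, 84.76 and 90.35 in that of the jhd2 experiment. The difference was 0.93 ± 0.17 (adjusted p = 0.00323). THI13 read 163.9 and 137.5 in the overexpression wild type and 94.65, 74.1 and 61.52 in the jhd2 wild type, a difference of 0.99 ± 0.20 (adjusted p = 0.00688). THI21 read 216.8 and 235.7 in the overexpression wild type and 153, 170.8 and 165 in the jhd2 wild type, a difference of 0.47 ± 0.14 (adjusted p = 0.0429). In each gene all arrays of the overexpression wild type lay above all of the jhd2 wild type.

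These calls depended on how the arrays were put on 1 scale. With quantile normalization none was kept, with THI4 at 0.40 (adjusted p = 0.155), THI13 at 0.44 (adjusted p = 0.0671) and THI21 at 0.10 (adjusted p = 0.682). The THI21 call was also lost with median centring, at 0.35 (adjusted p = 0.121), and with only the arrays of the groups compared, at 0.47 (adjusted p = 0.111). Over all genes the called split in this comparison was 582 higher and 298 lower, 387 and 473 with quantile normalization, and 436 and 558 with median centring. These scalings moved the median of all genes, 0.07 here, by -0.12 and -0.13. The 4 thiamine genes with the lowest signals (THI2, THI4, THI13 and THI21) lie among the 1354 genes with mean signals of 6.96 to 296, whose median difference was 0.41. In the brighter groups of 1354, 1353 and 1354 genes, the medians were 0.14, 0 and -0.17. THI4 was called without each array in turn, at 0.88 to 0.97, and THI13 was lost without replicate 1 of the overexpression wild type, at 0.86 (adjusted p = 0.0994). THI21 was called in 3 of the 14 fits without 1 array, and its difference was 0.41 to 0.53 over them.

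The remaining genes differed less between these wild types. THI2 was at 0.46 ± 0.23, THI7 at 0.35 ± 0.17 and THI80, the kinase of the last step, at -0.25 ± 0.18. Groups did not overlap in 6 of 9 genes with higher values, against 31.7% of all tested genes, and in 1 with lower values, against 22.9%.

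The wild type of the SET1 experiment lay between the others in THI4 and THI13. Against the jhd2 wild type, THI13 was at 0.57 ± 0.20, THI4 at 0.54 ± 0.17, THI2 at 0.43 ± 0.23 and THI21 at 0.42 ± 0.14, with the smallest adjusted p at 0.219. Groups did not overlap in these 4 genes, against 12.9% of all tested genes with higher values, and 0 of 9 were called, against 0.388%, with 3 of 9 at an unadjusted p under 0.05, against 13.5%. Against the overexpression wild type, THI13 was at -0.42 ± 0.22 and THI4 at -0.39 ± 0.18, with 0 of 9 called, against 8.11%, and 0 at an unadjusted p under 0.05, against 27.2%. Groups did not overlap in 4 of 9 genes with lower values there, against 34.3%. The called split over all genes was 155 higher and 284 lower. It was 212 and 193 with quantile normalization and 355 and 148 with median centring, which moved the median by 0.12 and 0.18. Genes of the lowest signals, with THI2, THI4, THI13 and THI21 among them, had medians of 0.18 and -0.28 in these 2 comparisons. The brightest 1354 genes had 0.02 and 0.19. Over 26 other settings THI4 was at 0.29 to 0.65 and THI13 at 0.29 to 0.73 against the jhd2 wild type. Against the overexpression wild type they were at -0.49 to -0.11 and -0.55 to -0.15. The part of such shifts in these differences was not tested.

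**Figure D3:**
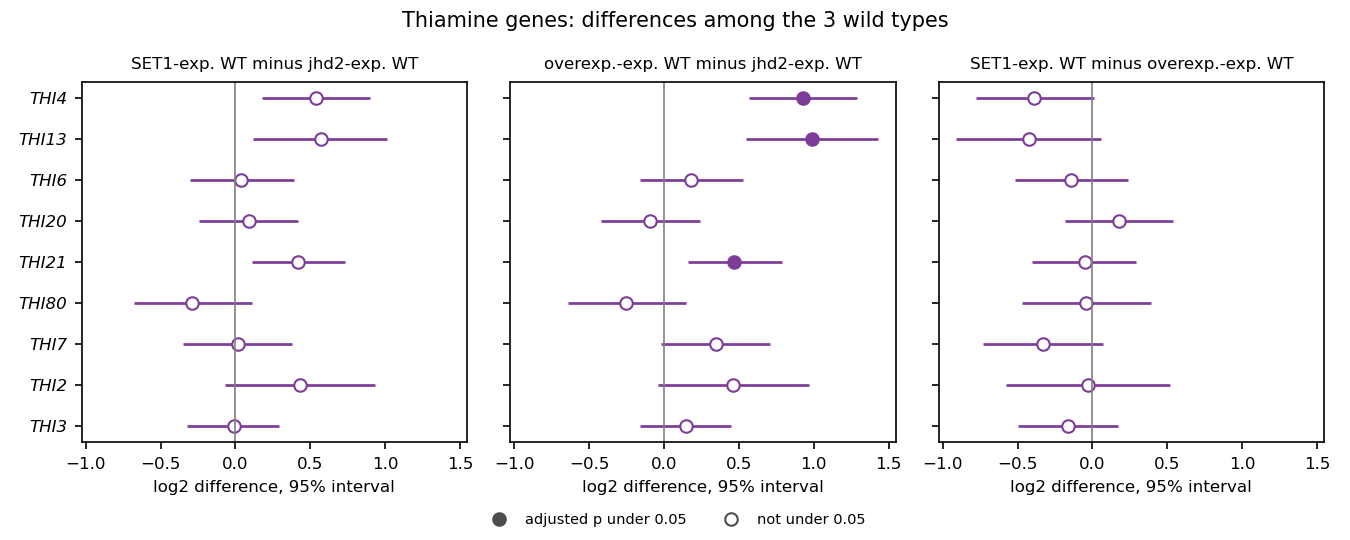
Differences in log2 signal between the wild types of the 3 experiments for the 9 thiamine genes, with 95% intervals, 1 panel per pair of wild types. Filled circles mark genes called in limma, which are THI4, THI13 and THI21 in the overexpression wild type against the jhd2 wild type.

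Ordered by group mean, THI4 ran from the set1 deletion (7.91 on the log2 scale) through the overexpressing strain (7.36) and its wild type (7.33), the SET1-experiment wild type (6.95) and the jhd2 deletion (6.62) to the jhd2-experiment wild type (6.41). Neighbours overlapped in their arrays at the overexpressing strain and its wild type, and at the jhd2 deletion and its wild type. THI13 began with the set1 deletion too (7.56) and ended with the jhd2-experiment wild type (6.24), with overlaps at the same pairs of groups. THI2 was instead highest in the overexpressing strain (6.98), followed by the set1 deletion (6.74), and THI6, THI7, THI20 and THI21 were also highest in the overexpressing strain.

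The range of the 6 group means was 1.5 in THI4, 1.32 in THI13 and 1.19 in THI2. It was 0.79 in THI21, 0.72 in THI7, 0.61 in THI6 and 0.50 in THI20, and 0.31 and 0.29 in THI3 and THI80. The spread between replicates, pooled over groups, was 0.10 to 0.21 in all 9 genes, with THI21 and THI4 at the low end and THI2 at the high end. So THI3 and THI80 ranged over less than 3 times their replicate spread of 0.12 and 0.20, while THI4 ranged widely at a spread of 0.11.

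Across the 14 arrays, THI4, THI13, THI21 and THI2 varied together. Pearson's r was 0.92 between THI4 and THI13, 0.84 between THI4 and THI21, 0.81 between THI4 and THI2 and 0.85 between THI2 and THI21. THI6 and THI20 were close to each other (0.77), and THI4 had r of -0.01 with THI20, 0.01 with THI3 and -0.23 with THI80. The arrays share experiments, scaling and groups, so these values describe mainly the 6 groups. Within groups r was -0.19 between THI4 and THI13, 0.41 between THI4 and THI21, 0.2 between THI4 and THI2 and -0.16 between THI2 and THI21. THI4, THI13, THI21 and THI2 are also the thiamine genes with the lowest signals. The 1354 genes of that signal level had a median difference of 0.41 between the overexpression and jhd2 wild types. The part of such shifts in r was not tested.

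**Figure D4:**
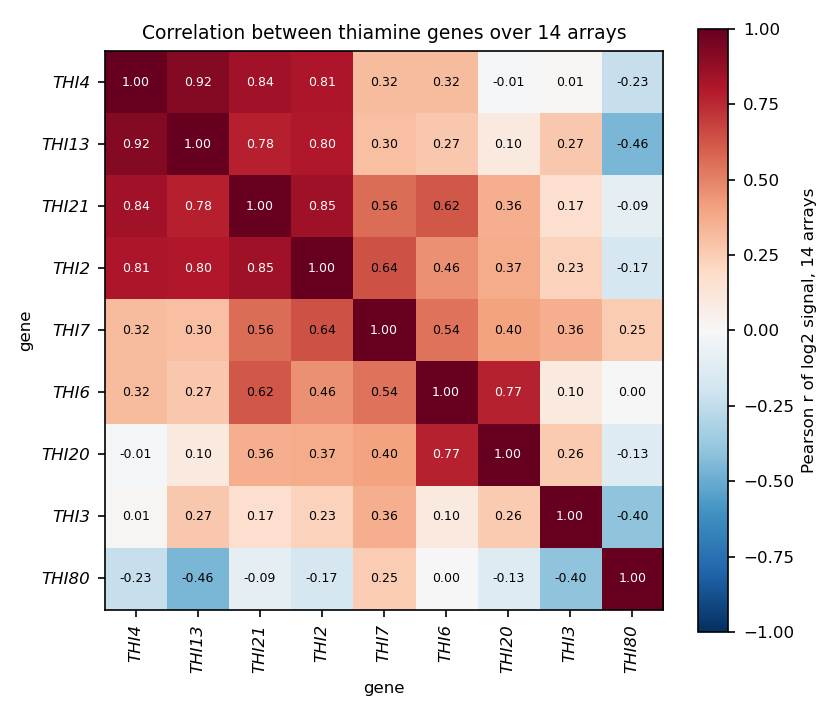
Pearson's r of log2 signal over 14 arrays between each pair of the 9 thiamine genes, from -1 (blue) to 1 (red). THI4, THI13, THI21 and THI2 form the red block, with THI4 and THI13 at 0.92, and THI80 is at -0.23 with THI4.

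Of the 5414 other tested genes, THI13 ranked 5 by likeness to THI4 over the 14 arrays, THI21 28 and THI2 45. The other thiamine genes ranked far lower, with THI6 at 1335, THI7 at 1361, THI3 at 2800, THI20 at 2923 and THI80 at 4051. The 8 genes outside the thiamine list with the highest r were FLO10 (0.954), ALP1 (0.945), REC104 (0.927), FRM2 (0.925), CTP1 (0.904), ERR3 (0.896), SNO4 (0.894) and SHC1 (0.889). Over the 6 group means the closest were ICL2 (0.997) and SHC1 (0.993).

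Other genes of thiamine use were read as a list of 11, of which 8 were measured, and none was called in an altered strain, while 2, 1 and 1 of 8 had an unadjusted p under 0.05 in the set1 deletion, the jhd2 deletion and the overexpressing strain, against 8.33%, 1.83% and 19.4% of all tested genes. In the set1 deletion PET18, whose product resembles proteins of thiamine metabolism, was at 0.72 ± 0.27 (adjusted p = 0.428), and at 1.2 without replicate 1 and 0.24 without replicate 2 of the wild type. In the jhd2 deletion PET18 read 145.2, 146 and 126.4, against 94.58, 98.84 and 106 in wild type, a difference of 0.48 ± 0.22 with groups that did not overlap (adjusted p = 1 in limma). It was called there with array weights (adjusted p = 0.0348), and in no other of the 26 settings. THI73, a putative transporter of the plasma membrane, was at 0.55 ± 0.24 in the set1 deletion (adjusted p = 0.574). In the overexpressing strain PHO3, the acid phosphatase that frees thiamine from its phosphates, read 0.50 ± 0.12 higher than wild type (adjusted p = 0.078). It was called in 7 of 27 other settings, among them quantile normalization at 0.53 (adjusted p = 0.0329), and its difference was 0.48 to 0.53 over them all. PHO3 was the 1 gene of the list called between wild types. It was lower in the overexpression wild type than in the jhd2 wild type by 1.01 ± 0.11 on the log2 scale (adjusted p = 7.57e-05), opposite to THI4.

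Vitamin B6 genes were followed because yeast builds the thiamine pyrimidine from a form of this vitamin, and SNZ and SNO genes encode the enzyme that makes it. None of the 8 measured of 10 was called in an altered strain, with 2, 0 and 4 of 8 at an unadjusted p under 0.05 in the set1 deletion, the jhd2 deletion and the overexpressing strain, against 8.33%, 1.83% and 19.4% of all tested genes. In the overexpression wild type 5 of 8 were called higher than in the jhd2 wild type, against 10.7% of all tested genes. The list was chosen with earlier results of these data known, so this count is not an independent test. SNZ1 was 15.0-fold higher there, with 3171 and 4153 against 153 to 454 in the groups of the other experiments, and the overexpressing strain read 5149 and 4165. SNO1 was higher by 4.67 ± 0.39 on the log2 scale in the same comparison, with 339.8 and 645.5 against 25.23, 19.61 and 12.48. The jhd2 wild-type signals lie near the array background of 8.08 to 9.1, and with 32 added to each signal the difference was 3.30. SNZ3 and SNO3, read by probe sets of the shared kind that may include SNZ2 and SNO2, were higher in that comparison by 0.79 ± 0.17 and 0.88 ± 0.16, and PDX3, the oxidase that forms the cofactor, by 0.50 ± 0.10. Without replicate 1 of the overexpression wild type SNZ3 was not called, at 0.55 (adjusted p = 0.142), nor was PDX3 without replicate 2, at 0.43 (adjusted p = 0.0802). In the overexpressing strain against its own wild type, SNZ3 and SNO3 were at -0.62 ± 0.18 (adjusted p = 0.123) and -0.65 ± 0.18 (adjusted p = 0.106).

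**Figure D5:**
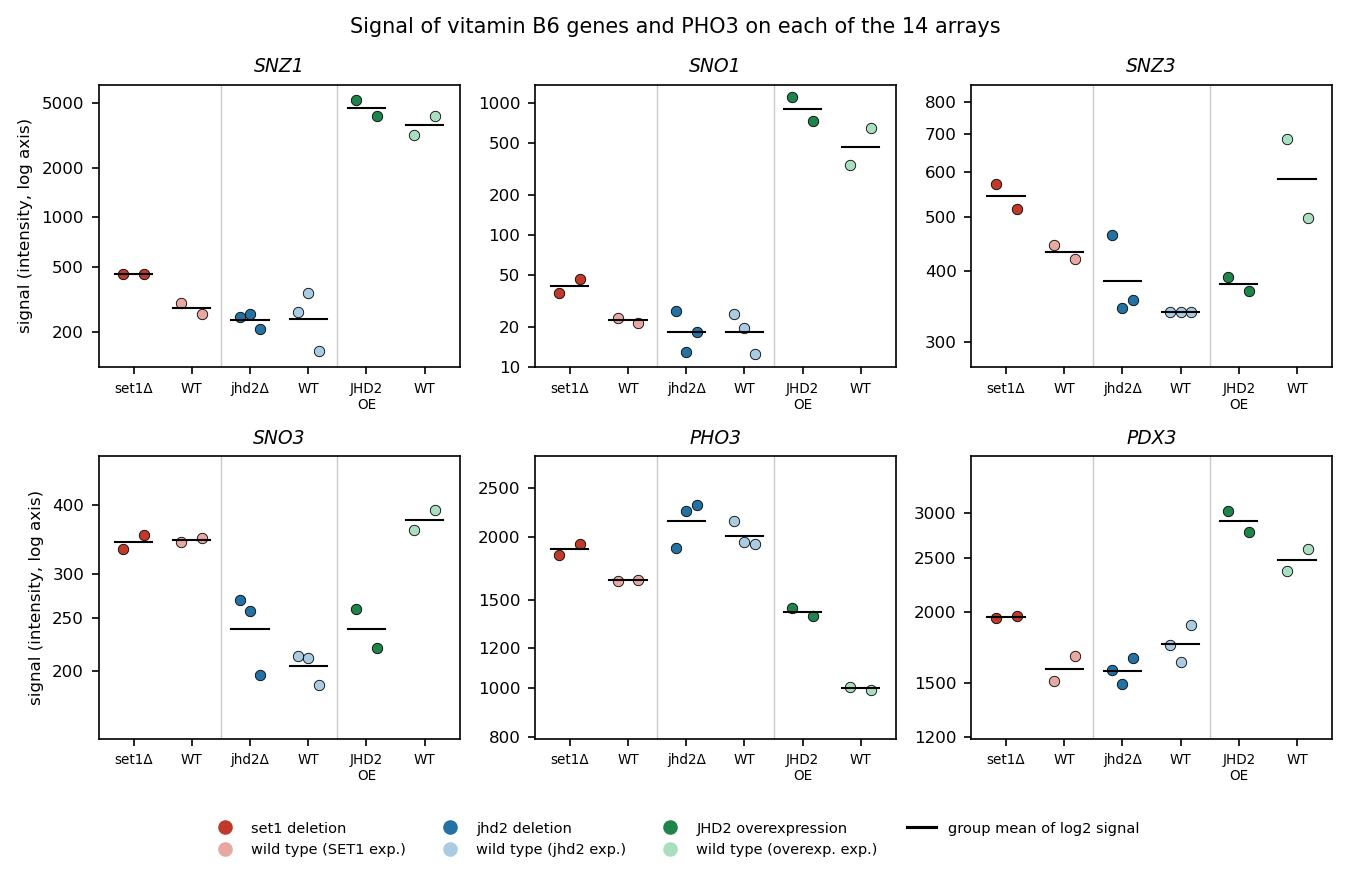
Signal of the vitamin B6 genes SNZ1, SNO1, SNZ3, SNO3 and PDX3 and of the thiamine phosphatase gene PHO3 on each of the 14 arrays, on a logarithmic vertical axis with lines at group means. SNZ1 and SNO1 are high on the 4 arrays of the overexpression experiment only, and PHO3 is lowest in its wild type.

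The enzymes that use thiamine diphosphate were measured in full (10 of 10) and none was called in an altered strain, with 2, 0 and 0 of 10 at an unadjusted p under 0.05 in the same strains, against 8.33%, 1.83% and 19.4% of all tested genes. In the set1 deletion PDC6, a minor pyruvate decarboxylase, was at 1.18 ± 0.37 (adjusted p = 0.313) and TKL2, a minor transketolase, at -1 ± 0.23 (adjusted p = 0.13), called with quantile normalization at -1.40 (adjusted p = 0.0174). Between the overexpression and jhd2 wild types 3 of 10 were called higher, against 10.7% of all tested genes. They were ARO10, a decarboxylase of amino acid breakdown, at 2.02 ± 0.34, TKL2 at 1.44 ± 0.21 and PDC6 at 1.23 ± 0.34. This list too was chosen with earlier results known, so its count is not an independent test. The call of PDC6 was lost with quantile normalization, at 0.56 (adjusted p = 0.158). It was also lost without replicate 1 (1.08) or 2 (1.38) of the overexpression wild type, or replicate 2 (1.10) or 3 (1.02) of the jhd2 wild type.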

How the data were processed

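Total RNA of 14 yeast cultures was hybridised to Affymetrix Yeast 2.0 arrays, and groups were taken from the labels. The authors deposited a linear intensity for each probe set, which the submitters' processing notes tie to MAS5 without a version or scaling target. The trimmed mean was 499.8 on every array. Names came from the platform annotation and a RefSeq gene table of assembly R64. Of 10928 probe sets, 5498 had a single S. cerevisiae gene, 1746 belonged to Schizosaccharomyces pombe, 1 had several genes and 3683 were unnamed. For 47 genes with several probe sets the brightest was used. A gene was tested if its mean exceeded the 95th percentile of S. pombe means, which removed 34 genes. On single arrays that percentile was 7.28 to 16.7. The number of arrays limits the precision.

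Signals under 1 were set to 1 and put on the log2 scale. One model with 6 group means was fitted to all 14 arrays in R 4.3.3 by limma 3.58.1, whose variances were moderated with a trend on intensity. P-values are two-sided. The fit was also run on simulated arrays with known differences and independent noise. Those arrays held no shared deviation of replicates and no shift with signal level, so that run does not cover either. Named genes are the 9 thiamine genes, the called genes of 3 further lists, otherwise up to 4 with the smallest p, and the genes most like THI4. These genes and lists were chosen with earlier results of these data known. Same-numbered arrays of the jhd2 experiment deviated together from their group means, with correlations across genes of 0.64, 0.62 and 0.69. The main fit took all arrays as unpaired, and same-numbered arrays were paired only in the alternative with a replicate block. For the altered strains that block was the replicate number within an experiment. For differences between wild types it was the replicate number alone, which pairs arrays of different experiments, although the labels give no such pairing. Alternatives covered normalization, filter, pseudocount, trend, array weights, blocks, probe sets and single arrays left out.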

Additional observations from a re-analysis of the deposited data

How the results depend on the processing

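In 27 other settings, 14 of them without 1 array, 2133 values of the 9 thiamine genes were recomputed. Of these, 2091 stayed on their side of the threshold, 17 lost a call, 25 gained one and 0 changed sign with a call in either fit. Among the 2091, 89 changed sign while called in neither fit. In the set1 deletion THI4 was called, 1 gene against 0, with a pseudocount of 32, a stricter filter, no intensity trend, the mean of probe sets, a replicate block, and, chosen after seeing the data, a 3'/5' covariate or both replicate 3 arrays of the jhd2 experiment left out. Leaving out single arrays gave 0 to 1, the 1 without replicate 3 of the jhd2 deletion. In the overexpressing strain the count was 1 with quantile normalization, 1 without both replicate 3 arrays, and 3 with array weights or a replicate block. The crossed pairing of that experiment, added because its numbers deviated oppositely (-0.14), gave 3 thiamine genes and 1175 of all genes, against 28. Between the overexpression and jhd2 wild types the count was 3, 0 with quantile normalization, 2 with median centring or only the arrays of the groups compared, and 1 to 3 without single arrays (1 without replicate 1 of the overexpression wild type). The difference between the set1 and overexpression changes gave 2 with the replicate block or its crossed form and 1 without both replicate 3 arrays, and that between the overexpression and jhd2 deletion changes gave 1 with array weights. In the other settings these counts, and in all settings those of the remaining 4 comparisons, were the same. Over all genes, calls in the set1 deletion were 14 (9 higher, 5 lower), 12 with quantile normalization (6 and 6), 20 with median centring (14 and 6) and 110 with the replicate block. In the overexpressing strain they were 28, 121 with quantile normalization, 1055 with array weights and 1105 with the block. For the jhd2 deletion they were 2, with 231 for array weights (199 higher, 32 lower) and 169 without both replicate 3 arrays (162 higher, 7 lower). Without single arrays they were 3 to 24 in the set1 deletion (3 and 4 without its replicates 1 and 2, 6 without replicate 2 of its wild type, 24 without replicate 3 of the jhd2 deletion). In the overexpressing strain they were 5 to 157, with 5 to 7 when the missing array was one of that experiment and 157 without replicate 3 of the jhd2 wild type. In the jhd2 deletion they were 1 to 24 (24 without its replicate 3), and between the overexpression and jhd2 wild types 257 to 1061. Between the wild types of the SET1 and jhd2 experiments they were 17 to 224, the 224 without replicate 1 of the SET1 wild type, and between those of the SET1 and overexpression experiments 124 to 658. The cause was not tested. The block changed no thiamine call in the jhd2 experiment. The labels do not pair the arrays of any experiment, and the correlation of same-numbered arrays was 0.73 in the SET1 experiment, with 2 arrays per group.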
